A study of Rattus norvegicus with 12 samples.

Results

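Il6, Stat3 and Socs3 are 3 genes of 1 signaling route, and their transcripts were followed in rat liver during chemically induced hepatocarcinogenesis with and without green tea. The genes were chosen by name and Ensembl gene ID, Il6 as ENSRNOG00000010278, Stat3 as ENSRNOG00000019742 and Socs3 as ENSRNOG00000002946. The deposited expression values list 34194 gene IDs, and 3 of them are described here. The pairing of these IDs with the gene names was taken as given and was not checked against an annotation. Male Wistar rats were assigned to 4 groups, 12 to each at the start, and livers were taken at week 20. From each group 3 livers were drawn at random for sequencing, each giving 1 library. The Control group was injected with saline on the same schedule and had water to drink. The NDEA group, the model control, received 25 mg/kg N-nitrosodiethylamine (NDEA), a carcinogen that induces liver tumors, into the peritoneum, 2 injections a week between weeks 2 and 9, with water to drink. The NDEA+CFT-1 group had the same NDEA injections and drank an infusion of the EGCG-rich tea variety CFT-1 for 20 weeks. The NDEA+FYT group had the same NDEA injections and drank an infusion of the common tea Fuyun6 (FYT) for 20 weeks. No group that drank tea without NDEA is among the samples. The labels give neither the age of the rats nor whether the sequenced piece was a nodule or the liver around it. Fewer cells of a type and less RNA per cell cannot be told apart in such bulk tissue.

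Interleukin-6 is a secreted cytokine that binds the IL-6 receptor and the shared chain gp130. The bound receptor activates Janus kinases, which phosphorylate the transcription factor STAT3. STAT3 then enters the nucleus and switches on its targets, among them Socs3, whose product binds the receptor and the kinases and shuts the signal off. In liver this route drives the acute phase response and takes part in regeneration, and much of the IL-6 there is made by macrophages rather than hepatocytes. STAT3 is controlled mainly by phosphorylation, which RNA sequencing does not measure.

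The bases just before the annotated gene start are shown for Il6 and Stat3 to let the control regions be read beside the levels (RefSeq, assembly GRCr8, both genes on the minus strand). The Il6 stretch covers 250 bases at chr4:5894576-5894825, and the Stat3 stretch covers the 96 bases of the window outside the annotated gene, at chr10:86363514-86363609. Capitals mark a cyclic AMP response element (TGACGTCA) and the core of a kappaB site (GGGANNTTC).
Il6: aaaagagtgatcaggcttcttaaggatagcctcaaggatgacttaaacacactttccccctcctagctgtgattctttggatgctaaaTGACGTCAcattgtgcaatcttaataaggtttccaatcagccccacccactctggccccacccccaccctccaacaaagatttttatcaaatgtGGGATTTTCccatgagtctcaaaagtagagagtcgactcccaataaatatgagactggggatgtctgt
Stat3: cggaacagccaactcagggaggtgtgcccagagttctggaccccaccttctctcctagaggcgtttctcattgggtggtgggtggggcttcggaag
The Socs3 window lay wholly inside the annotated gene and was not printed. The RefSeq windows of 300 bases were searched on both strands for 3 motifs that do not overlap one another in these sequences. The Il6 window held 1 cyclic AMP response element, ending 154 bases before the annotated start, and 1 kappaB core, ending 59 bases before it. These motifs were present in 1.83% and 4.05% of the 33469 windows searched. The STAT motif TTCNNNGAA was in 8.87% of all windows and its letters were not in the Il6 and Stat3 windows. The Socs3 window does not cover the outermost annotated start, so no motif is described for it. The expression values were made on Rnor_6.0, so these positions are not those of the authors' build.

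The values were FPKM, mapped fragments of a gene divided by its transcript length and by the total of mapped fragments in the library. FPKM corrects for gene length, so levels of different genes can be compared. Low FPKM values moved in steps of 1 read, and whole reads were recovered for 24697 of the 24718 IDs above 0 (99.9%, within 0.02 reads). The recovered reads summed to 11640165 to 19398486 per library. These sums leave out the 21 unresolved IDs, which had a mean FPKM of at least 1105, and so are not the full depth. For each gene the smallest whole numbers that fit were taken. Multiples of them would fit as well, so the read counts, intervals and limits below hold for that smallest solution. The shallowest library was NDEA replicate 1, and relative to it the depth was 1.22 to 1.60 in Control, up to 1.45 in NDEA, 1.32 to 1.66 in NDEA+CFT-1 and 1.14 to 1.60 in NDEA+FYT. Values are given as deposited and after median-of-ratios scaling, which divides each library by 1 factor so that the typical gene is at the same level in every library. The factor was highest in NDEA replicate 1 (1.40) and lowest in Control replicate 3 (0.771), so the values of the first fall and those of the second rise on scaling. Across all genes tested as deposited, the median log2 fold change was 0.20 for NDEA minus Control, -0.16 for NDEA+CFT-1 minus NDEA, -0.14 for NDEA+CFT-1 minus NDEA+FYT and 0.18 for NDEA+FYT minus Control. After scaling the 6 medians lay between -0.04 and 0.05.

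Il6 was close to the limit of detection. The deposited FPKM was 0 in 9 of the 12 libraries, namely all 3 of Control, all 3 of NDEA+CFT-1, NDEA replicates 2 and 3, and NDEA+FYT replicate 3. The 3 libraries above 0 were NDEA replicate 1, with an FPKM of 0.0618 from 1 read, NDEA+FYT replicate 1, with 0.191 from 4 reads, and NDEA+FYT replicate 2, with 0.378 from 7 reads. The scaled values were 0.0440, 0.171 and 0.350. The exact Poisson 95% interval ran from 0.00156 to 0.344 in NDEA replicate 1, from 0.0520 to 0.489 in NDEA+FYT replicate 1 and from 0.152 to 0.779 in NDEA+FYT replicate 2. A count of 0 allows up to 3 reads, which corresponds to FPKM limits of 0.112 to 0.152 in the libraries at 0. These intervals and limits cover counting error only.

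**Figure D1:**
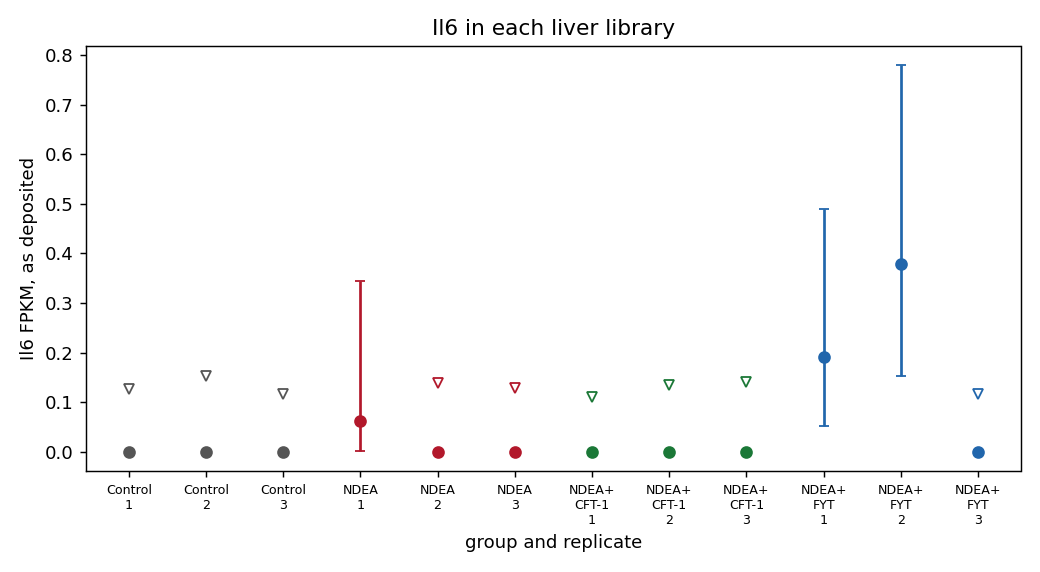
Il6 FPKM as deposited (vertical axis) in each of the 12 libraries, grouped and colored by treatment with the replicate number under each point. Filled points are the values, bars the exact Poisson 95% interval and open triangles the FPKM that 3 reads would give in a library listed at 0. The 2 highest points, 0.191 and 0.378, are NDEA+FYT replicates 1 and 2.

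Summed over the libraries of a group, Il6 had 11 reads in NDEA+FYT, 1 read in NDEA and 0 reads in Control and in NDEA+CFT-1. Corrected for depth and with the group at 0 set to 3 reads, NDEA+FYT was 3.89-fold Control and 3.95-fold NDEA+CFT-1. The reads of NDEA+FYT were taken as exact there, so these values are not lower bounds. The ratio of NDEA+FYT to NDEA was 10.3, with a counting interval from 1.5 to 443. NDEA+FYT replicate 2 gave 7 of the 11 reads. Without it the values against Control and NDEA+CFT-1 were 1.97 and 2.00, and the ratio to NDEA was 5.23 (0.517 to 257). These ratios compare pooled libraries, and NDEA+FYT replicate 3 was at 0, so the spread within the group (FPKM 0.190 ± 0.189, SD) was as wide as its mean. Il6 did not pass the filter of a mean FPKM of at least 1, so it was read from a limma fit without a filter on 24718 IDs. In that fit the log2 fold change of FPKM + 1 was 0.24 ± 0.09 (SE) for NDEA+FYT minus Control (Benjamini-Hochberg adjusted p = 0.927) and 0.21 ± 0.09 for NDEA+FYT minus NDEA (adjusted p = 1.00). NDEA+CFT-1 minus NDEA+FYT was -0.24 (adjusted p = 0.986). The size of a fitted change against a group at 0 depends on the constant added, and NDEA+FYT minus Control was 1.27 with a pseudocount of 0.1 (limma, adjusted p = 0.877) and 2.53 in a voom fit of the recovered reads (adjusted p = 0.824). These 3 differences passed an unadjusted p under 0.05, as did 2.91%, 1.27% and 4.17% of IDs in the same comparisons and directions. The exact permutation test gave p = 0.4 for each. Without NDEA+FYT replicate 3 these differences were 0.36, 0.33 and -0.36 (limma, adjusted p = 0.179, 0.411 and 0.211). Without NDEA+FYT replicate 2 they shrank to 0.13, 0.10 and -0.13 and no longer passed the unadjusted threshold, nor did they without NDEA+FYT replicate 1. All 3 also missed it in fits of only the groups compared. NDEA+FYT minus NDEA further missed it without NDEA replicate 2 or 3 or NDEA+CFT-1 replicate 2, without the trend in eBayes and in the voom fit of unscaled reads. A difference of NDEA from Control or from NDEA+CFT-1 rested on the 1 read in NDEA replicate 1. Il6 was therefore not called in any comparison. The fit called 0.00405% of IDs in NDEA minus Control and in NDEA+FYT minus Control, and 0% in the 3 others that give an Il6 value. Over the alternatives tried, the lowest adjusted p of Il6 was 0.179, for NDEA+FYT minus Control without NDEA+FYT replicate 3.

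Stat3, the transcription factor of the route, was the most abundant of the 3 genes in every library and ranked at the 78.4th percentile of the 11854 genes tested by mean FPKM. In Control the FPKM was 19.3, 19.2 and 18.0 in replicates 1, 2 and 3, and in NDEA it was 25.2, 18.2 and 19.1. In NDEA+CFT-1 it was 33.8, 33.8 and 17.8, and in NDEA+FYT 23.9, 34.3 and 38.2. The 4 highest libraries were thus 2 of each tea group, while NDEA+CFT-1 replicate 3 was the lowest of all 12. The means were 18.8 ± 0.714 (SD, n = 3) in Control, 20.8 ± 3.78 in NDEA, 28.4 ± 9.24 in NDEA+CFT-1 and 32.1 ± 7.39 in NDEA+FYT. After scaling, Control was at 19.6, 19.0 and 23.3 and NDEA at 17.9, 18.6 and 18.7. NDEA+CFT-1 was then at 33.7, 41.3 and 18.3, and NDEA+FYT at 21.4, 31.8 and 35.9. The scaled means were 20.6 ± 2.35 in Control, 18.4 ± 0.436 in NDEA, 31.1 ± 11.7 in NDEA+CFT-1 and 29.7 ± 7.48 in NDEA+FYT. The order of the 2 tea groups, and that of Control and NDEA, changed with the scaling, and the tea groups overlapped on both scales while Control and NDEA overlapped only as deposited. These levels rested on 1600 to 4187 reads per library.

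The percentile of Stat3 within its own library does not depend on the scaling. It was 74.0, 74.7 and 75.9 in Control and 74.9, 74.4 and 74.0 in NDEA. It was 82.6, 83.7 and 72.9 in NDEA+CFT-1 and 76.9, 82.8 and 84.4 in NDEA+FYT. All NDEA+FYT libraries ranked above all NDEA libraries on this measure, as for 3.37% of the genes tested, and above all Control libraries, as for 5.04%. NDEA+CFT-1 was divided, with replicate 3 below every other library.

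**Figure D2:**
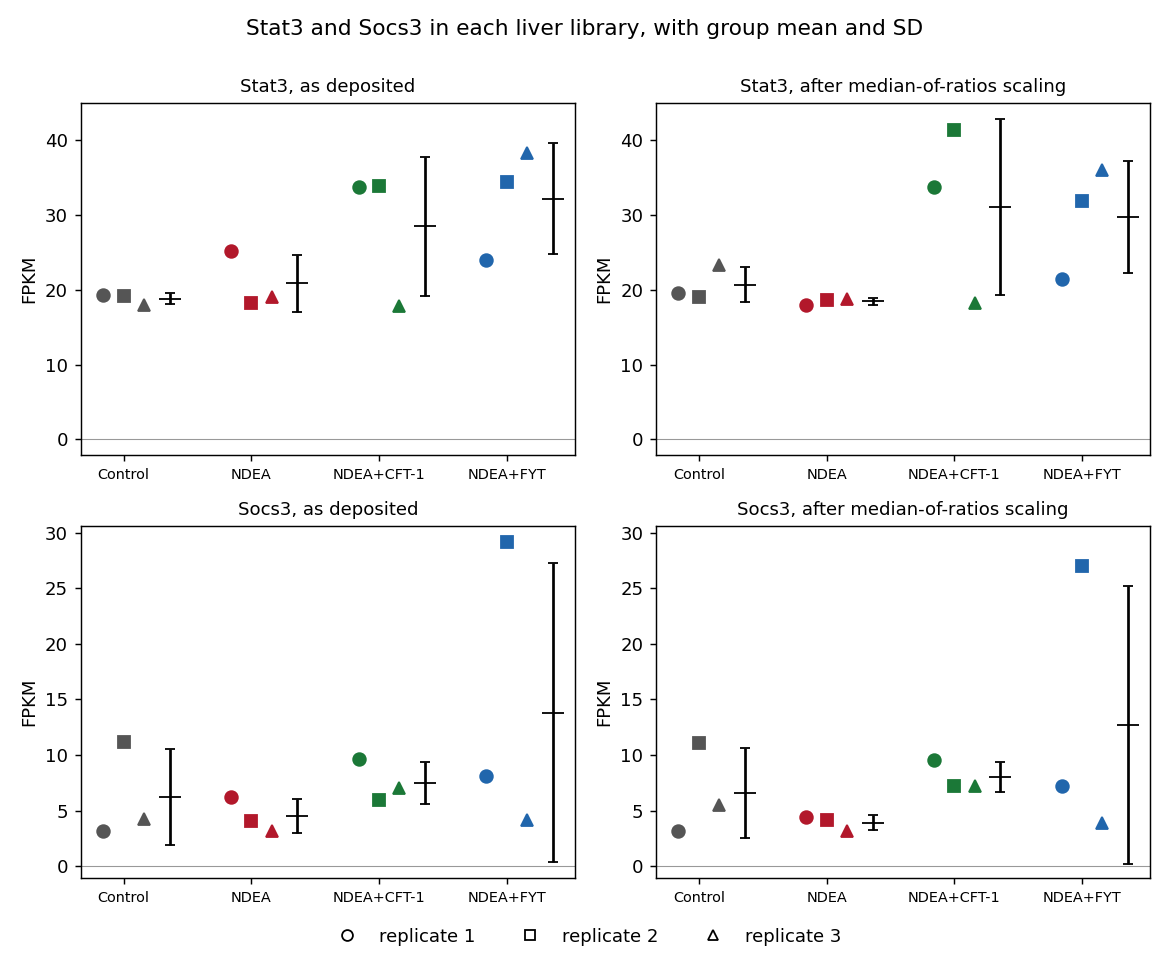
FPKM (vertical axes) of Stat3 (top) and Socs3 (bottom) in the 3 libraries of each group, as deposited (left) and after median-of-ratios scaling (right). Symbols give the replicate number, and the horizontal dash with its bar is the group mean and SD. Stat3 in NDEA+CFT-1 replicate 3 sits with Control and NDEA at 17.8, and Socs3 in NDEA+FYT replicate 2 stands apart at 29.2.

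For the comparison of the FYT tea with the model group, the log2 fold change of Stat3 was 0.59 ± 0.25 (SE), or 1.54-fold between the mean FPKM values (limma, Benjamini-Hochberg adjusted p = 1.00). It passed an unadjusted p under 0.05, as did 1.07% of the genes tested in the same direction. After scaling it was 0.63 ± 0.27 and 1.61-fold (adjusted p = 0.999), and passed the same threshold with 0.987% of genes. The deposited values overlapped between the groups, with 8 of 9 pairs of libraries higher in NDEA+FYT. The scaled values did not overlap, as was true of 3.57% of genes in that direction. The exact two-sided permutation test gave p = 0.2 as deposited and 0.1 after scaling, which is the smallest value that 3 libraries against 3 allow. With each library left out in turn the log2 fold change lay between 0.46 and 0.78 as deposited, and it missed the unadjusted threshold without NDEA replicate 2 or 3 or NDEA+FYT replicate 2 or 3. After scaling it missed it without any of these 4 libraries, NDEA replicate 1 or Control replicate 1.

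For the CFT-1 tea against NDEA, Stat3 had a log2 fold change of 0.39 ± 0.25 and a ratio of means of 1.37 (limma, adjusted p = 0.521). After scaling these were 0.65 ± 0.27 and 1.69 (adjusted p = 0.310), and Stat3 was among the 8.22% of genes that were higher at an unadjusted p under 0.05, but not without any single NDEA library or without NDEA+CFT-1 replicate 1 or 2. NDEA+CFT-1 replicates 1 and 2 were above all NDEA libraries and replicate 3 was not (exact permutation p = 0.4 and 0.3). Without NDEA+CFT-1 replicate 3 the log2 fold change was 0.69 as deposited and 0.98 after scaling. Without NDEA+CFT-1 replicate 2 it was 0.24 as deposited and 0.41 after scaling. The 2 teas did not differ detectably in Stat3, with a log2 difference of NDEA+CFT-1 minus NDEA+FYT of -0.20 as deposited (95% confidence interval -0.76 to 0.35) and of the opposite sign, 0.02, after scaling (-0.57 to 0.61). The intervals leave room for a difference of either sign.

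Against Control, Stat3 was 0.72 ± 0.25 higher on the log2 scale in NDEA+FYT as deposited (limma, adjusted p = 0.844; 1.71-fold). The 3 libraries of NDEA+FYT lay above the 3 of Control (exact permutation p = 0.1), as in 18.8% of the genes tested, and Stat3 was among the 3.43% of genes that were higher at an unadjusted p under 0.05, but not without NDEA+FYT replicate 3. After scaling the difference was 0.48 ± 0.27 (adjusted p = 1.00; 1.44-fold) and the groups overlapped. NDEA+CFT-1 minus Control was 0.52 as deposited (adjusted p = 1.00) and 0.50 after scaling (adjusted p = 0.998), with NDEA+CFT-1 replicate 3 below every Control library on both scales. As deposited it was 0.81 without that library and 0.37 without NDEA+CFT-1 replicate 2. NDEA minus Control was 0.13 ± 0.25 as deposited (adjusted p = 0.829) and changed sign to -0.15 ± 0.27 after scaling (adjusted p = 0.851), when all NDEA libraries lay below all Control libraries (exact permutation p = 0.1). Such a separation downward was seen for 6.69% of genes. The comparisons of the teas with NDEA share the NDEA libraries, and those with Control share the Control libraries.

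**Figure D3:**
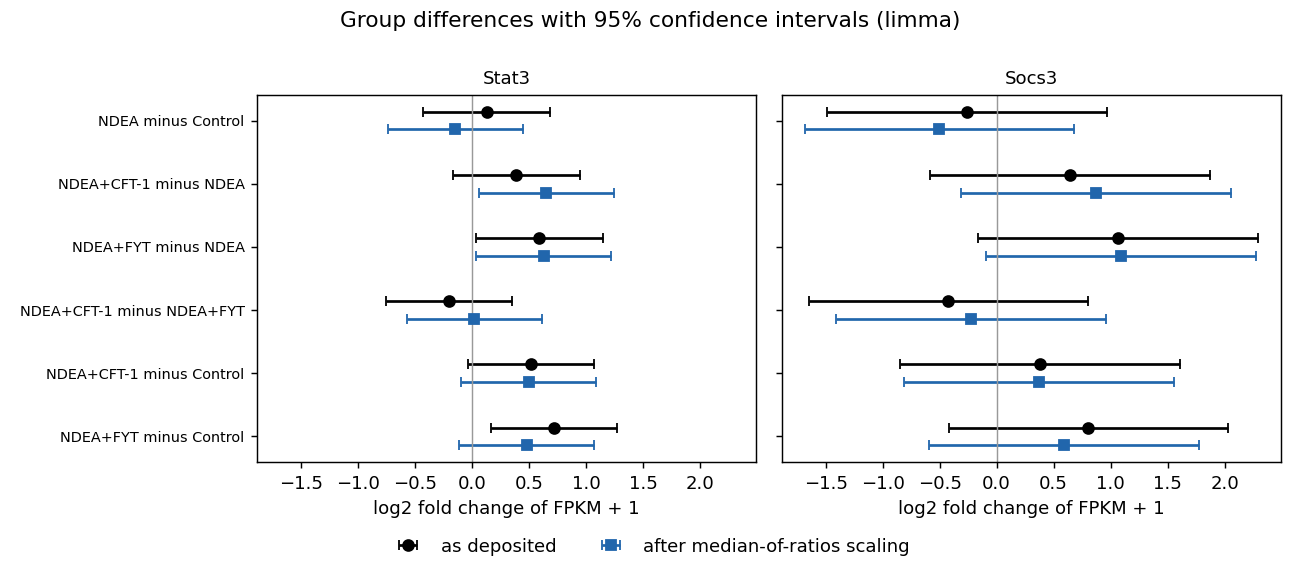
Log2 fold change of FPKM + 1 (horizontal axes) of Stat3 (left) and Socs3 (right) in 6 comparisons between groups, with 95% confidence intervals from limma. Black circles are values as deposited and blue squares values after median-of-ratios scaling. The Stat3 interval for NDEA+FYT minus NDEA lies above 0 on both scales before adjustment, and every Socs3 interval spans 0.

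Socs3, the feedback inhibitor, was lower and more scattered than Stat3. Its mean FPKM was at the 53.7th percentile of the genes tested, while its spread within groups on the log2 scale was at the 96.3rd percentile, against the 57.8th for Stat3. The highest library exceeded the lowest 9.24-fold for Socs3 and 2.15-fold for Stat3. The FPKM was 3.16, 11.1 and 4.27 in Control, 6.21, 4.09 and 3.21 in NDEA, 9.60, 5.91 and 7.04 in NDEA+CFT-1 and 8.09, 29.2 and 4.16 in NDEA+FYT. NDEA+FYT replicate 2 was the highest of all, Control replicate 2 came next, and the other 10 libraries lay between 3.16 and 9.60. The means were 6.19 ± 4.32 (SD, n = 3) in Control, 4.50 ± 1.54 in NDEA, 7.51 ± 1.89 in NDEA+CFT-1 and 13.8 ± 13.5 in NDEA+FYT. After scaling the values were 3.21, 11.0 and 5.53 in Control, 4.42, 4.18 and 3.15 in NDEA, 9.58, 7.21 and 7.23 in NDEA+CFT-1 and 7.24, 27.0 and 3.92 in NDEA+FYT. The scaled means were 6.59 ± 4.02, 3.92 ± 0.677, 8.01 ± 1.36 and 12.7 ± 12.5 in the same order. The order of the means was NDEA, Control, NDEA+CFT-1 and NDEA+FYT on both scales, and only NDEA and NDEA+CFT-1 after scaling were apart without overlap. The libraries held 62 to 446 Socs3 reads. In NDEA+FYT replicate 2 the 446 reads gave an exact Poisson 95% interval of 26.5 to 32.0 FPKM, which covers counting error only.

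Within libraries, Socs3 ranked at the 30.9th, 63.4th and 44.9th percentile in Control and at the 37.2nd, 36.3rd and 29.1st in NDEA. It ranked at the 58.5th, 52.4th and 51.8th percentile in NDEA+CFT-1 and at the 52.1st, 80.5th and 35.0th in NDEA+FYT. By rank, all NDEA+CFT-1 libraries were above all NDEA libraries, as for 7.46% of the genes tested, and NDEA+FYT ranged from below to above every NDEA+CFT-1 library.

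For Socs3 in NDEA+CFT-1 minus NDEA, the log2 fold change was 0.64 ± 0.56 (limma, adjusted p = 0.626), a ratio of means of 1.67. After scaling it was 0.87 ± 0.54 (adjusted p = 0.437) and 2.04-fold, and the groups did not overlap, as for 11.1% of genes in that direction (exact permutation p = 0.1, or 0.2 as deposited). In NDEA+FYT minus NDEA the log2 fold change was larger, 1.07 ± 0.56 (adjusted p = 1.00), and the mean was 3.07-fold that of NDEA. After scaling these were 1.09 ± 0.54 (adjusted p = 0.999) and 3.25-fold, with exact permutation p values of 0.2 and 0.3. The size of this difference depended on single libraries. Without NDEA+FYT replicate 2 the log2 fold change fell to 0.35 as deposited and 0.38 after scaling. Without NDEA+FYT replicate 3 it was 1.63 as deposited and 1.64 after scaling.

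The remaining Socs3 comparisons were wide. NDEA minus Control was -0.26 ± 0.56 (adjusted p = 0.842) and -0.50 ± 0.54 after scaling (adjusted p = 0.737), and without Control replicate 2 the value as deposited was 0.20. NDEA+CFT-1 minus Control was 0.38 (adjusted p = 1.00) and 0.37 after scaling (adjusted p = 0.998), and as deposited it was 0.07 without Control replicate 1 and 0.84 without Control replicate 2. NDEA+FYT minus Control was 0.80 (adjusted p = 0.844) and 0.59 after scaling (adjusted p = 1.00), and as deposited it was 0.09 without NDEA+FYT replicate 2 and 1.37 without NDEA+FYT replicate 3. NDEA+CFT-1 minus NDEA+FYT was -0.42 as deposited (95% confidence interval -1.65 to 0.80) and -0.22 after scaling, and without NDEA+FYT replicate 2 it turned to 0.29 as deposited.

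**Figure D4:**
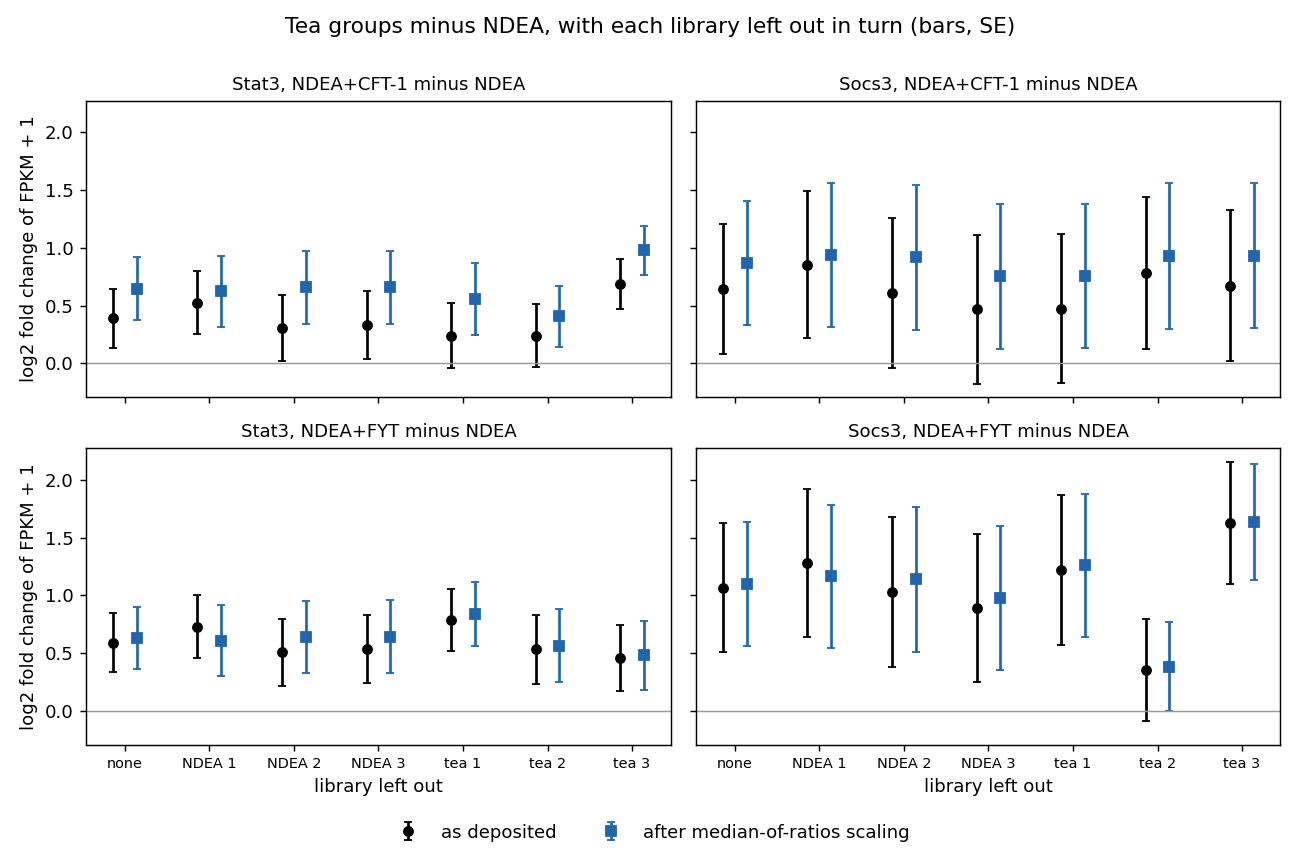
Log2 fold change of FPKM + 1 (vertical axes, bars are SE) of Stat3 (left) and Socs3 (right) for NDEA+CFT-1 minus NDEA (top) and NDEA+FYT minus NDEA (bottom), with all libraries (none) and with each library of the 2 groups left out. Black circles are values as deposited and blue squares scaled values. Socs3 in NDEA+FYT minus NDEA drops to 0.35 as deposited when tea replicate 2 is left out.

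No member was called at an adjusted p under 0.05 in any of the 6 comparisons. The limma fit called 0 of the 11854 genes tested (0%) in each comparison on both scales. At an unadjusted p under 0.05 as deposited, the counts were 1031 for NDEA minus Control, 1494 for NDEA+CFT-1 minus NDEA, 176 for NDEA+FYT minus NDEA, 642 for NDEA+CFT-1 minus NDEA+FYT, 385 for NDEA+CFT-1 minus Control and 450 for NDEA+FYT minus Control. A voom fit of the recovered reads also called 0 genes in the 6 comparisons, with 142 to 1410 genes at the unadjusted threshold. The F test of limma among the 4 groups gave adjusted p values of 0.791 for Stat3, 0.831 for Socs3 and 0.865 for Il6. Set against the shift of the typical gene as deposited, Stat3 stood 0.55 above the median fold change in NDEA+CFT-1 minus NDEA and 0.62 above it in NDEA+FYT minus NDEA. The corresponding distances of Socs3 were 0.81 and 1.10. In NDEA minus Control, Stat3 stood at -0.07 and Socs3 at -0.46 relative to the median.

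The level of Socs3 per unit of Stat3 in the same library is also free of the scaling. Socs3 was below Stat3 in all 12 libraries. The ratio was 0.164, 0.580 and 0.237 in Control, 0.247, 0.224 and 0.168 in NDEA, 0.284, 0.175 and 0.396 in NDEA+CFT-1 and 0.338, 0.849 and 0.109 in NDEA+FYT. NDEA+FYT thus held both the highest and the lowest ratio, and the 4 groups overlapped.

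Across the 12 libraries the 3 pairs of genes were correlated on the scaled log2 values, with permutation p-values adjusted over the 3 pairs. Il6 and Socs3 had a Pearson r of 0.713 (p = 0.0268, adjusted p = 0.0804) and a Spearman rho of 0.422 (p = 0.180, adjusted p = 0.539). Without NDEA+FYT replicates 1 and 2, the libraries farthest from the median of Il6, r was -0.170, so the r of 0.713 rests on those samples. Only NDEA replicate 1, with 1 read, is then above 0 in Il6. This setting therefore cannot test a relation of Il6 with Socs3 or with Stat3. Stat3 and Socs3 had an r of 0.368 (p = 0.248, adjusted p = 0.371) and a rho of 0.231 (p = 0.472). Without NDEA+CFT-1 replicate 2 and NDEA+FYT replicate 3, which were high in Stat3 but not in Socs3, r was 0.685 (permutation p = 0.0325, adjusted p = 0.0974). Centred on the group means, r for this pair was 0.00337. Il6 and Stat3 had an r of 0.179 (p = 0.654) and a rho of -0.0643 (p = 0.853), and r was 0.352 as deposited and -0.288 without NDEA+FYT replicates 1 and 2. Centred on the group means, r was 0.819 for Il6 and Socs3 (permutation p = 0.00572, adjusted p = 0.0172) and -0.140 for Il6 and Stat3. The Spearman rho of the centred Il6 and Socs3 values was 0.475 (permutation p = 0.122, adjusted p = 0.367). Centred values were shuffled over all libraries and not within groups, although they are not exchangeable between groups. The p-values of the centred settings are therefore not a valid test. The centred Il6 value is 0 in every Control and NDEA+CFT-1 library, and without NDEA+FYT replicate 2 the centred r was 0.439 (permutation p = 0.169, adjusted p = 0.253). Uncentred, no pair passed an adjusted p of 0.05 over the 12 libraries. Without NDEA+FYT replicate 2, the uncentred r of Il6 and Socs3 was 0.144.

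**Figure D5:**
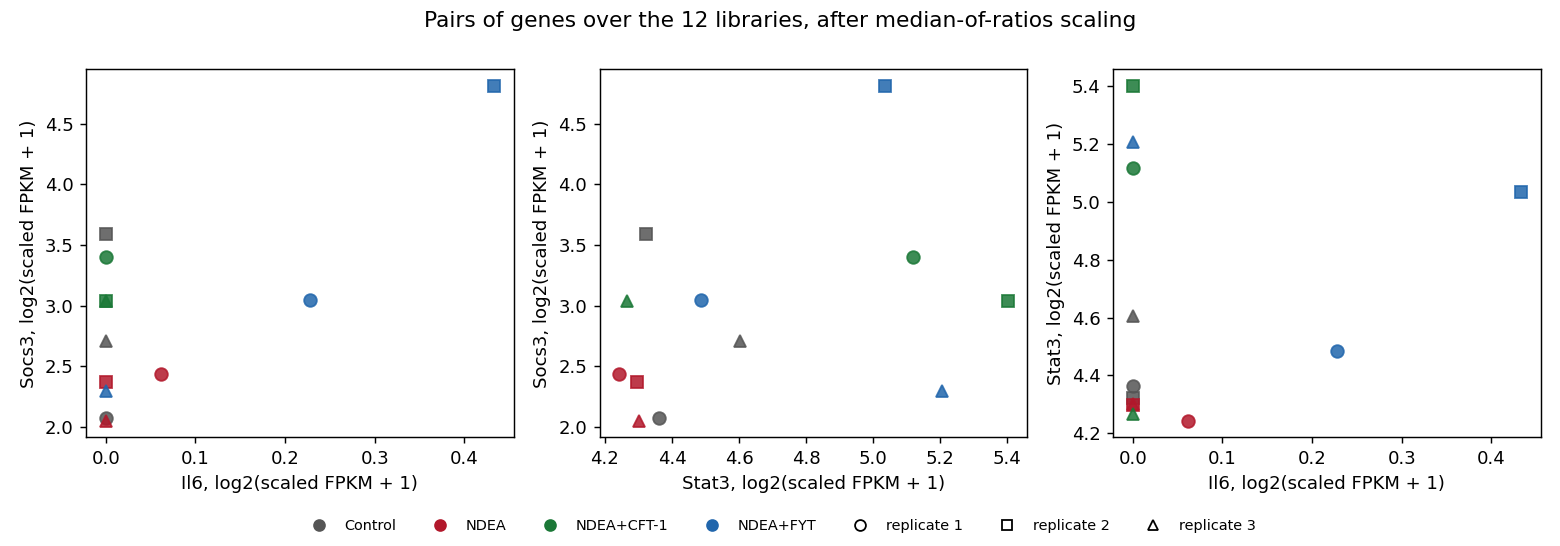
Log2(scaled FPKM + 1) of each pair of genes in the 12 libraries: Il6 against Socs3 (left), Stat3 against Socs3 (middle) and Il6 against Stat3 (right). Colors give the group and symbols the replicate. Of the 12 libraries, 9 lie at 0 on the Il6 axes, and NDEA+FYT replicate 2 is highest in both Il6 and Socs3.

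The genes with the pattern most like Stat3 and Socs3 were sought over the 12 libraries by Pearson r on scaled log2 values among the other 11853 genes tested. None were sought for Il6, which did not pass the filter. They carry no symbol in the tables used and are given by ID. For Stat3 they were ENSRNOG00000030387 (r = 0.882) and ENSRNOG00000026748 (r = 0.878), and the most opposite were ENSRNOG00000020392 (r = -0.824) and ENSRNOG00000059952 (r = -0.805). For Socs3 they were ENSRNOG00000008898 (r = 0.882) and ENSRNOG00000021108 (r = 0.796), and the most opposite were ENSRNOG00000012001 (r = -0.888) and ENSRNOG00000002452 (r = -0.822). The mean FPKM of ENSRNOG00000008898 and ENSRNOG00000021108 was 1.40 and 1.52, close to the filter of 1. As deposited, ENSRNOG00000008898 spanned only 1.02 to 1.78 and was highest in NDEA replicate 1, unlike Socs3. The r values describe the likeness of patterns and were not tested.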

How the data were processed

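Livers of 12 rats (4 groups, 3 libraries each) were sequenced as paired ends. Per the labels and the study's methods, the authors used Trimmomatic, HISAT2 and HTSeq 0.6.1 with Rnor_6.0, took out PCR duplicates, kept unique alignments and deposited FPKM values without counts. Taking out duplicates can lower the most abundant genes.

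Values were taken as log2(FPKM + 1). The 11854 genes averaging an FPKM of 1 or more were fitted with limma 3.58.1 in R 4.3.3 (eBayes with trend, all groups in 1 fit, Benjamini-Hochberg adjustment over all genes, called at an adjusted p under 0.05). Fold changes on this scale understate those of low genes. Median-of-ratios factors came from 15742 genes above 0 in every library. Exact permutation tests were two-sided with 20 assignments. Correlations used 100000 resamples over all libraries kept, also for values centred on the group means. Whole reads were recovered from FPKM steps as the smallest whole numbers that fit each gene, of which multiples would fit too (21 IDs with a mean FPKM of at least 1105 were not resolved), and limma-voom on them was an alternative added after seeing the data. So were 10 of the 12 scaled fits that leave out a library, the pooled Il6 reads and the correlations without NDEA+FYT replicate 2 (centred or not), and the percentiles within libraries. Simulated data with known changes served to test the fit. Python 3.11.15, scipy 1.17.1 and matplotlib 3.10.9 were used.

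The members and lists were chosen with earlier results of these data known. IL-6 pathway and liver cell marker lists were not analysed here, and the tissue was not checked against its markers, because 0 Ensembl IDs are paired with symbols in the tables used. The named genes were the members and the 2 IDs with the highest and the 2 with the lowest r to Stat3 and to Socs3. The settings varied were a pseudocount of 0.1, no filter, scaling, only the groups compared, no trend, the replicate number as a block and each library left out.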

Additional observations from a re-analysis of the deposited data

How the results depend on the processing

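Stat3, Socs3 and Il6 stayed uncalled under every alternative run (lowest limma adjusted p, Benjamini-Hochberg, 0.282 for Stat3, 0.366 for Socs3 and 0.179 for Il6). The fold change kept its direction in 165 of 192 alternative fits of Stat3 and 188 of 192 of Socs3. Some of these fits could not move the value as deposited, so the counts do not measure stability. They were no filter, no trend, the replicate block, only the groups compared and a left-out library of another group. The sign of Il6 against a group at 0 is fixed, so no such count is given for it, and where a left-out library brought both groups to 0 it had no value. Its log2 fold change in NDEA+FYT minus Control ran from 0.11 without NDEA+FYT replicate 2 after scaling to 2.53 with voom.

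Sign changes: Stat3 in NDEA minus Control was -0.15 after scaling and -0.16 with scaled voom, and leaving out single libraries on either scale gave -0.20 to 0.21. NDEA replicate 1 decided its sign as deposited (-0.01 without it). Stat3 in NDEA+CFT-1 minus NDEA+FYT was 0.020 after scaling and 0.024 with scaled voom, with left-out values from -0.39 to 0.35. For Socs3 the left-out values ran from -0.86 to 0.20 in NDEA minus Control, from -0.98 to 0.49 in NDEA+CFT-1 minus NDEA+FYT and from -0.12 to 1.37 in NDEA+FYT minus Control, where the last 2 changed sign without NDEA+FYT replicate 2 (NDEA+FYT minus Control only after scaling) and the first without Control replicate 2 (only as deposited). The causes were not tested.

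The r of Il6 and Socs3 was -0.170 without the 2 libraries farthest from the median, 0.144 without NDEA+FYT replicate 2 and 0.819 centred on the group means (permutation, adjusted p = 0.0172; Spearman rho 0.475, adjusted p = 0.367). The r of Il6 and Stat3 was -0.288, -0.163 and -0.140 in the same settings, 0.188 without NDEA replicate 1 and 0.352 as deposited. Centred and without NDEA+FYT replicate 2, r was 0.439 for Il6 and Socs3, -0.206 for Stat3 and Socs3 and -0.499 for Il6 and Stat3. The p-values of centred values are not a valid test, as the shuffling ignored the groups. For Stat3 and Socs3, r was 0.333 without NDEA replicate 1 and 0.233 without NDEA+FYT replicate 2.

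Genes called, none of them a member, numbered 1 without a filter in NDEA minus Control, in NDEA+CFT-1 minus Control and in NDEA+FYT minus Control (ENSRNOG00000053566 in each). With single libraries left out they numbered 0 to 2 in NDEA minus Control and in NDEA+CFT-1 minus Control (ENSRNOG00000019412 and ENSRNOG00000056847, without Control replicate 2). They numbered 0 to 1 in NDEA+FYT minus NDEA, NDEA+CFT-1 minus NDEA+FYT and NDEA+FYT minus Control (ENSRNOG00000057194, without NDEA+FYT replicate 3). These IDs are named because they were called, after their values were seen. A replicate block left 0 genes called in the 6 comparisons, with 195 to 1568 at an unadjusted p under 0.05, and lifted the unadjusted p of Stat3 in NDEA+FYT minus NDEA above 0.05. Libraries of 1 number were not treated as paired (r of deviations from -0.468 to 0.282, 7 of 18 pairs over 0.1). Between Control and NDEA+CFT-1 the r of replicates 1, 2 and 3 was 0.217, 0.272 and 0.282. With 3 libraries a group, exact tests cannot go below 0.1, and an Il6 level of 1 to 7 reads is known only within wide counting intervals.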
